A study of Mus musculus with 3 samples.

Results

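Melanocytes, the pigment cells of skin, were sought in a single-cell RNA-seq series of mouse dorsal skin by the genes of their pigment program. A cell was taken as marker-positive when it held at least 1 unique molecular identifier (UMI, a tag that counts 1 captured mRNA molecule) of at least 3 of the 6 markers Tyr, Dct, Mlana, Pmel, Tyrp1 and Mitf, and no UMI of Ptprc, the pan-leukocyte gene, or Pdgfra, a fibroblast receptor gene. Only cells with 300 genes or more, of whose UMIs no more than 10% were mitochondrial, entered the rule, which found 1020 cells among 33511 retained cells (36868 deposited). These 6 genes chose the cells, so their presence in them is a description and not a finding.

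The samples were 3 libraries of full-thickness dorsal skin from wild type C57BL/6J mice, labelled female and 8 weeks old, with 1 library in each condition. CON was unirradiated skin, and UV was skin irradiated every other day for 12 weeks with 0.60 mW/cm2 of UVA plus 3.5 mW/cm2 of UVB. Rux was skin that received the same irradiation with a topical ointment of 1.5% ruxolitinib, an inhibitor of the Janus kinases JAK1 and JAK2, after each session, and the skin of the other groups received the ointment base. The number of mice in a library is not given in the sources used here, and with 1 library per condition no difference between conditions could be tested. The libraries held 165337289 UMIs in 13170 cells (CON), 133972374 in 12411 (UV) and 131570327 in 11287 (Rux), with medians of 6941, 7154 and 8715 UMIs per cell. All intervals given are 95% intervals that cover counting error only, not the variation between mice or between cells. Pairs of libraries shared few cell barcodes (50 for UV and CON, 40 for Rux and UV, 28 for Rux and CON).

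The labels and the counts differed on sex. In marker-positive cells Ddx3y, a gene of the Y chromosome, stood at 83.7 UMIs per 1000000 (CPM) in CON, 76.0 in UV and 97.9 in Rux. Xist, the RNA that coats the inactive X chromosome in female cells, had 1, 1 and 0 UMIs there. The animals are therefore called mice here, with no sex given.

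Melanocytes descend from the neural crest. Their lineage factor Mitf, working with Sox10 and Pax3, drives the enzymes of melanin synthesis: Tyr catalyses the rate-limiting step from tyrosine, and Dct and Tyrp1 act further along the route to eumelanin. Pmel builds the fibrils of the melanosome on which melanin is laid down, and Mlana takes part in its maturation. Survival and pigmentation depend on signals from neighboring keratinocytes and fibroblasts through receptors such as Kit, Ednrb and Mc1r. In the back skin of mice most melanocytes sit in hair follicles.

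The marker-positive cells made up 4.38% of retained cells in CON (527 cells, Clopper-Pearson interval 4.02% to 4.76%), 3.57% in UV (404 cells, 3.23% to 3.92%) and 0.878% in Rux (89 cells, 0.705% to 1.08%). The order of the libraries rested on the exclusion of cells with a Ptprc or Pdgfra UMI, which removed 221 of 748 cells with at least 3 markers in CON, 418 of 822 in UV and 231 of 320 in Rux. With those cells kept the shares were 6.21%, 7.25% and 3.16%, so that UV lay above CON. The marker-positive cells were deep cells. Their medians were 25739, 11906.5 and 15125 UMIs, against 7686, 7753 and 9611 over all retained cells. Because a deep cell has more chances to hold a stray UMI, each cell was also thinned to 2000 UMIs, which left shares of 2.25%, 1.16% and 0.528% after 1424, 1216 and 862 shallower cells were left out.

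Most of these cells carried only traces of the markers. Of the 1020 cells, 577 had exactly 3 markers (272 in CON, 266 in UV and 39 in Rux). The median summed level of the 6 markers in those cells was 170 CPM in CON, 348 in UV and 220 in Rux, against 31296, 27077 and 32066 in the cells with all 6 markers. Cells with 2 markers, just outside the threshold, had medians of 170, 253 and 230 CPM and thus did not stand apart from those just inside it. Dct and Pmel together with Mitf formed the most frequent set of 3 in CON (92 of 272 cells) and UV (58 of 266), and the same set shared that place with Dct, Mlana and Mitf in Rux (9 each of 39 cells). Among the other retained cells, a Dct UMI was found in 26.6% of CON, 22.3% of UV and 12.0% of Rux cells. Mitf, which is also expressed outside the pigment lineage, was found in 26.8%, 34.8% and 48.6% of them. Tyr, by contrast, was found in 1.85%, 1.81% and 1.13%. In mast-marker cells, where Mitf is known to act as well, it stood at 326, 223 and 160 CPM. How much of the trace signal was free RNA from broken pigment cells was not tested.

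**Figure D1:**
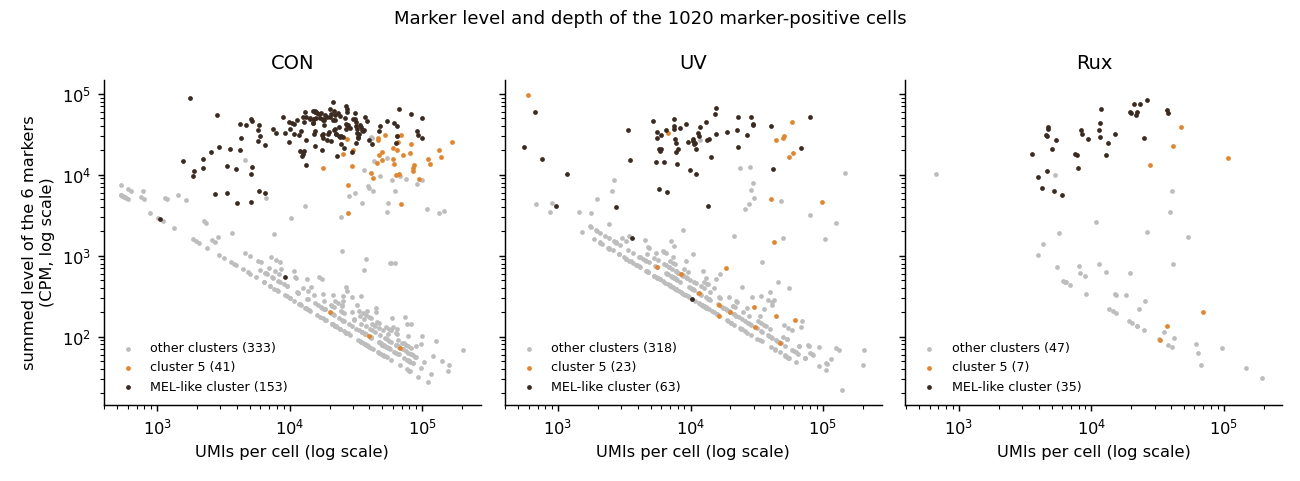
Summed level of the 6 markers (CPM, log scale) against UMIs per cell (log scale) for each of the 1020 marker-positive cells, by library. Black points are the 251 cells of the MEL-like cluster, orange points the 71 cells of cluster 5 and gray points the other clusters; the gray bands falling with depth are cells with a few marker UMIs, while 247 of the 251 MEL-like cells lie at 3000 CPM or above.

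To separate the pigment cells from cells with traces, the marker-positive cells were clustered on their variable genes without the 6 markers, which gave 10 clusters. Cluster 1 held 251 cells. It was called MEL-like because at least 3 of the 6 markers stood among its 10 leading genes against all other retained cells, more than of any list of another cell type, and no keratin gene did, there or among its 10 leading genes against the other marker-positive cells. That naming rule was set after the data were seen. The summed marker level was at least 3000 CPM in 247 of the 251 MEL-like cells, and 230 of them had at least 5 markers. In contrast, 578 of the 769 cells of the other clusters had under 1000 CPM, and their median was 4 marker UMIs in 22523 UMIs per cell. Mitf was present in 69.4% of those 769 cells.

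The other 9 clusters are given by number, with their leading genes against the other marker-positive cells. Cluster 2 (242 cells) was led by Krt71, Krt25, Krt28 and Krt27, keratins of the inner root sheath of the hair, and cluster 4 (139 cells) by Defb6, Krt79 and Sox9. Cluster 3 (155 cells) was led by collagen genes, cluster 6 (51 cells) by the suprabasal keratins Krt1 and Krt10, cluster 7 (42 cells) by Rgs5, Fabp4 and Aqp1, and cluster 9 (27 cells) by Prox1 and Nts. Cluster 8 (34 cells, 32 of them from UV) was led by Sntg1, Smpd3 and Cxcl13. Cluster 10 (8 cells) had Mal, a gene of myelin membranes, among its leading genes. Cluster 5 (71 cells) paired high levels of pigment genes with the hair shaft keratins Krt35 and Krt75. Against all other retained cells it also had 3 of the 6 markers among its 10 leading genes, and it was left unnamed for these keratins. A doublet caller marked 39.4% of its cells, and their median was 47604 UMIs.

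**Figure D2:**
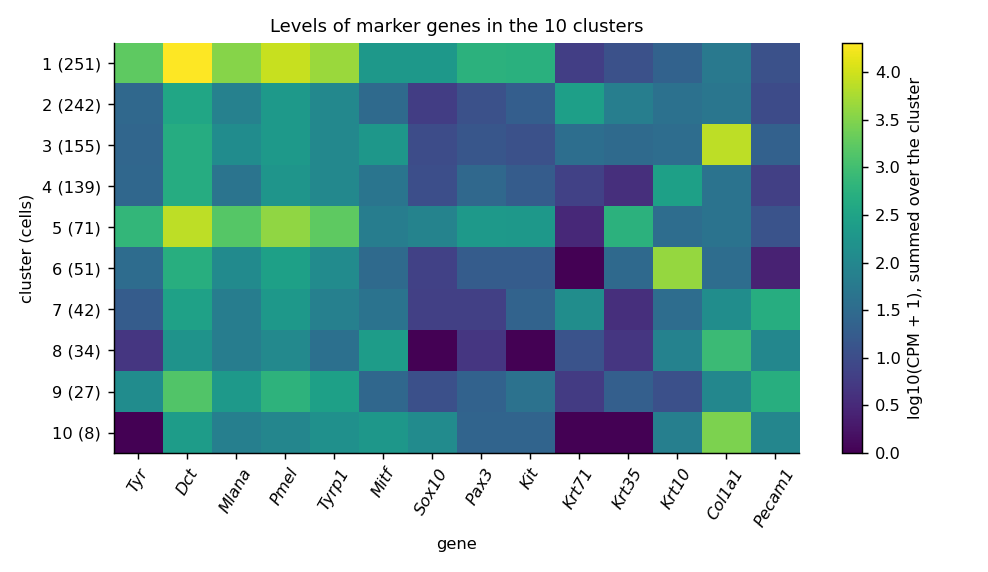
Levels of 14 marker genes in the 10 clusters of marker-positive cells, as log10(CPM + 1) of the UMIs summed over each cluster (rows, with cell numbers; columns are genes). Cluster 1 is highest in Dct, Pmel, Tyr, Sox10, Pax3 and Kit, cluster 5 joins pigment genes to Krt35, and the highest levels of Krt71, Krt10 and Col1a1 lie in clusters 2, 6 and 3.

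MEL-like cells were fewer in UV and in Rux than in CON. They made up 1.27% of retained cells in CON (153 cells, 1.08% to 1.49%), 0.556% in UV (63 cells, 0.427% to 0.711%) and 0.345% in Rux (35 cells, 0.241% to 0.480%). The CON interval did not overlap the others, whereas those of UV and Rux overlapped. Per 100 cells chosen on basal keratinocyte markers there were 3.88 MEL-like cells in CON, 3.60 in UV and 2.45 in Rux, so that the gap between CON and UV was small on that scale. The number of keratinocyte-marker cells itself went from 3945 in CON to 1751 in UV and 1428 in Rux, and cell numbers after dissociation cannot be told apart from numbers in the skin. MEL-like cells were not shallow; their medians were 17847, 9593 and 9372 UMIs, and their totals were 3324055, 842463 and 448019 UMIs.

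The identity of the MEL-like cells was checked on genes outside the 6 markers. The clustering used 1500 variable genes without the markers, which may include the genes given here, so they are not independent of it. Sox10, the neural crest factor, stood at 206, 159 and 228 CPM in CON, UV and Rux, and Pax3, its partner at the Mitf gene, at 645, 470 and 440 CPM. Cdh19, a cadherin gene of the Schwann lineage, which is the sister lineage from the neural crest, was not absent from MEL-like cells (186, 182 and 163 CPM). In cells chosen on Schwann markers, which include both genes, Sox10 stood at 60.4, 136 and 240 CPM and Cdh19 at 212, 342 and 581 CPM. Sox10 and Cdh19 were thus not particular to MEL-like cells. Pax3 stood at 6.87, 46.9 and 53.5 CPM in the Schwann-marker cells. Cpa3, a mast cell protease, was at 0, 0 and 2.23 CPM against 4919, 4551 and 2932 CPM in mast-marker cells, which share Kit (795, 523 and 440 CPM) with the pigment lineage. The 10 keratinocyte genes listed together had 548, 490 and 203 CPM in MEL-like cells and 7747, 4085 and 4513 CPM in all other cells, with Krt17 the most abundant of them. The UV library carried more of some other lists: the endothelial genes summed to 3.01, 115 and 2.23 CPM in CON, UV and Rux, led by Pecam1, the myeloid genes to 22.6, 224 and 22.3 CPM, led by Lyz2, and the globin genes to 0.602, 628 and 31.2 CPM, led by Hbb-bs. A single UV cell gave 93.6% of the Hbb-bs UMIs of that library, and few UV cells held Lyz2. The 8 mast cell genes summed to 2.11, 11.9 and 13.4 CPM, with 3 of them at 0 in all 3 libraries. The part of these transcripts in the differences between libraries was not tested.

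Besides the 6 markers, MEL-like cells shared a set of genes that other skin cells nearly lacked. Of 1913 genes with at least 100 CPM, 90 were at least 8-fold higher than in all other retained cells in each of the 3 libraries, and 53 were at least 16-fold higher. Ranked by the smallest of the 3 log2 ratios, the list was led by Synpr, which encodes a synaptic vesicle protein (281, 201 and 75.9 CPM in CON, UV and Rux, against 3.29, 1.64 and 0.681 CPM in the other cells, smallest log2 ratio 6.42). Cpne4 (778, 490 and 359 CPM) and Mcoln3, an endolysosomal cation channel gene (270, 205 and 228 CPM), followed. Ptgds, the prostaglandin D2 synthase gene, was the most abundant of the 20 genes named by that rule, at 4610, 4936 and 8995 CPM, and it was found in 95.4%, 92.1% and 100% of the cells. The 20 also held Pax3 and the pigment genes Slc45a2, Mlph, Tspan10, Gpr143, Trpm1 and Slc24a5. These genes describe the cluster and carry no test.

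Of the 6 marker genes, Tyr lies at chr7:87424771-87493512 on the minus strand, Dct at chr14:118012790-118052244 (minus), Tyrp1 at chr4:80834123-80851719 (plus), Pmel at chr10:128704195-128720238 (plus), Mlana at chr19:29697824-29708634 (plus) and Mitf at chr6:97807052-98021349 (plus), all in mouse build GRCm38 and all annotated as protein-coding. Mitf protein is known to bind the M-box, an E-box element with the core letters TCATGTG. The promoters of the 3 melanin enzymes are shown because each holds that core. They are taken from RefSeq on build GRCm38.p6, run from 250 bases before to 50 bases after the annotated start, are written on the strand of the gene, and carry the core in capitals (CACATGA where it lies on the opposite strand).
Tyr, chr7:87493463-87493762, minus strand: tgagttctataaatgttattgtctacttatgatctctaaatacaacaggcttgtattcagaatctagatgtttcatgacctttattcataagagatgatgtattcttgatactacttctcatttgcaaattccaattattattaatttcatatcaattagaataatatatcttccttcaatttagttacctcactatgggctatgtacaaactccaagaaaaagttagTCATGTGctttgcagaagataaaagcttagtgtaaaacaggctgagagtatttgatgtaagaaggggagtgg
Tyrp1, chr4:80833963-80834262, plus strand: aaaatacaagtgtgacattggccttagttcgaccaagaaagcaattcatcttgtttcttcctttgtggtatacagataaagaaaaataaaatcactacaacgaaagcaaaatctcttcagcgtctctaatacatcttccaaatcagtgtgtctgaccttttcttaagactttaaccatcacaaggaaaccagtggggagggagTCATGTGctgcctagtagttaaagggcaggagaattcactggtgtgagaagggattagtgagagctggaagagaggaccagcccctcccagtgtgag
Dct, chr14:118052197-118052496, minus strand: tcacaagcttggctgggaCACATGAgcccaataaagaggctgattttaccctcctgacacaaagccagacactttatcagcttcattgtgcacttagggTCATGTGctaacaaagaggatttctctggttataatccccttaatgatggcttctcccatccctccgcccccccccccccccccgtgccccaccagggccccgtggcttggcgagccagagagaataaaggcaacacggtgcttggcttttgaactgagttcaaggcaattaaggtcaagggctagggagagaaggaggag

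The core began 22 bases before the start in Tyr, 47 bases before it in Tyrp1, and 232 and 151 bases before it in Dct. Counting both strands, 1239 of 32851 RefSeq promoter windows of this length held the core, or 3.77%. Of the 4 marker genes with an entry it was found in these 3, and Mitf itself held none. Among the other pigment genes it was found in 5 of 32 with an entry (Hps1, Slc24a5, Slc7a11, Trpm1 and Tspan10), and the windows of Oca2 and Ptgds held none. A match describes the letters of the window only.

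In MEL-like cells the melanin enzymes were lowest in UV and highest in Rux when UMIs were summed over cells. Tyr stood at 1801 CPM in CON (1756 to 1848, Poisson interval), 1262 in UV (1187 to 1340) and 2056 in Rux (1925 to 2193). Dct, the most abundant of the 6, stood at 20841, 16540 and 23977 CPM, and Tyrp1 at 4545, 3942 and 6013 CPM. The structural genes followed the same order, with Pmel at 8993, 7438 and 10078 CPM and Mlana at 3445, 2731 and 4533 CPM. Mitf was far lower than Dct, at 185, 178 and 324 CPM, and its intervals in CON and UV overlapped. The log2 ratios of UV over CON ran from -0.51 (Tyr) to -0.05 (Mitf) with a median of -0.30, and those of Rux over UV from 0.44 (Pmel) to 0.86 (Mitf) with a median of 0.66. The corresponding medians over all genes with at least 50 CPM were -0.01 and 0.07. In all other retained cells the medians of the 6 markers were -1.35 and -1.08. Mitf differed from that median, since in retained cells that were not marker-positive it stood at 45.7, 76.7 and 129 CPM in CON, UV and Rux. Its higher level in Rux was thus not particular to MEL-like cells.

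The sums leaned on a few deep cells with much marker RNA. A single UV cell gave 22.7% of the Mlana UMIs of that library and 14.3% of its Dct UMIs, and a single Rux cell gave 19.7% and 11.1%. The per-cell medians gave another order, except for Mitf (128 CPM in CON, 74.3 in UV and 186 in Rux). For Mlana they were 2857 CPM in CON, 1044 in UV and 877 in Rux, so that the library with the highest sum had the lowest median. For Dct they were 19712, 15477 and 17642 CPM, for Pmel 7666, 4581 and 7229 CPM, for Tyrp1 4179, 3511 and 4010 CPM, and for Tyr 1481, 936 and 860 CPM. With equal weight per cell the median log2 ratio of the 6 genes was -0.42 for UV over CON, 0.36 for Rux over UV and -0.06 for Rux over CON. The median was below 0 for UV over CON in both ways of counting, and its sign for Rux over CON depended on the weighting. These are the genes that chose the cells, in libraries whose MEL-like cells differed in depth, so the values are a description.

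**Figure D3:**
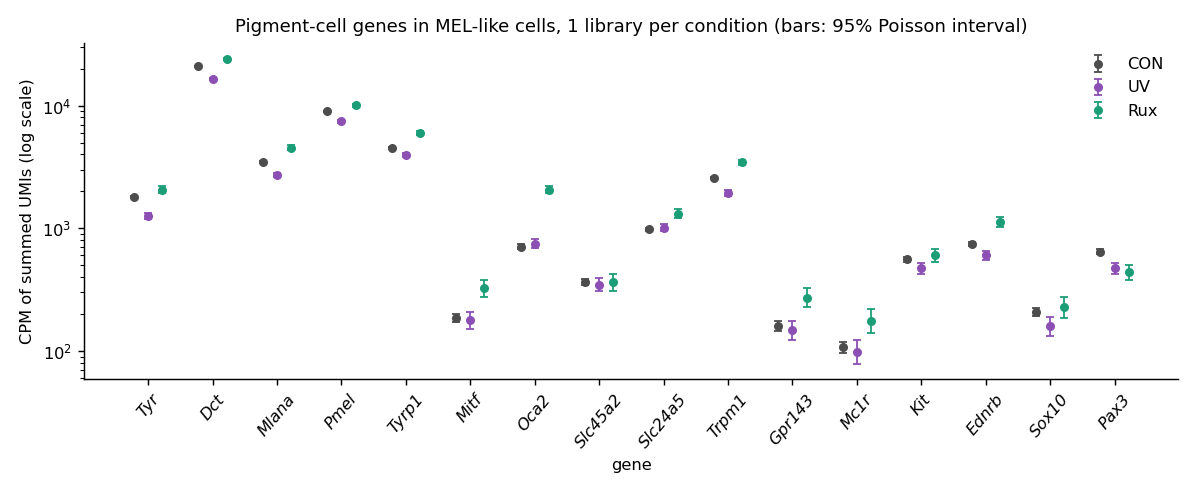
Level of 16 pigment-cell genes in MEL-like cells (CPM of UMIs summed over the cells of a library, log scale) in CON, UV and Rux, with 95% Poisson intervals. The Rux points lie highest for most genes, most widely for Oca2 (2069 CPM against 708 in CON and 750 in UV), while Pax3 is lowest in Rux and Slc45a2 differs little.

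The marker genes did not all vary together from cell to cell. Within each library, the Spearman correlation across MEL-like cells of Dct with Pmel was 0.782 in CON (153 cells), 0.711 in UV (63 cells) and 0.910 in Rux (35 cells). That of Mitf with Dct was -0.048, 0.177 and -0.249, at Mitf counts of a few UMIs per cell. These points share a library and differ in depth, and no p-value is attached to them.

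The other pigment genes gave a similar picture for Rux over UV and less for UV over CON. Of the 37 genes of the list, which covers melanosome assembly, pigment chemistry and transport, 23 had at least 50 CPM in UV and CON, and their median log2 ratio was -0.07 with 9 above 0 (48.6% of all genes were) and none past 2-fold. For Rux over UV, 23 of 24 were above 0 (56.3% of all genes were) with a median of 0.42, and with equal weight per cell the median was 0.21. In that contrast 2.62% of all 3701 genes tested were higher by 2-fold or more and 2.32% were lower, and of the pigment list 1 gene, Oca2, was higher by that much. For Rux over CON 18 of 23 were above 0 (57.9% of all genes were), and the median of 0.38 became 0.14 with equal weight.

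Oca2 encodes a melanosomal chloride channel that sets the pH of the organelle. It stood at 708 CPM in CON, 750 in UV and 2069 in Rux, with a log2 ratio of 1.46 for Rux over UV (exact interval 1.32 to 1.61) and 1.32 with equal weight per cell. Its level in all other retained cells was a trace (3.56 CPM in Rux). Rab38, a small GTPase of melanosome trafficking (404, 388 and 754 CPM), Gpr143, the ocular albinism receptor of melanosomes (160, 148 and 272 CPM), Trpm1 (2553, 1940 and 3451 CPM) and Myo5a, the motor that carries melanosomes to the cell edge (1499, 1522 and 2420 CPM), were also highest in Rux. Slc45a2, a melanosomal transporter, stood at 365, 348 and 362 CPM, and its intervals overlapped. Mlph, the adaptor between Rab27a and Myo5a, was at 370 CPM in CON and 368 in Rux but 237 in UV. Slc7a11, the cystine transporter that feeds pheomelanin synthesis, had 26 UMIs in CON, 38 in UV and 0 in Rux.

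Among the receptors for signals from the surrounding skin, Met and Ednrb were highest in Rux. Met, the receptor of hepatocyte growth factor, stood at 653, 501 and 1062 CPM in CON, UV and Rux, and Ednrb, the endothelin receptor, at 747, 601 and 1129 CPM. Mc1r, the receptor of melanocyte-stimulating hormone, stood at 107, 98.5 and 176 CPM, of which 1 cell gave 40.5% in Rux. Kit, the receptor of stem cell factor, differed less (557, 470 and 603 CPM), and Igf1r ran the other way for Rux over UV (265, 318 and 219 CPM). Of the 11 receptors with at least 50 CPM, 8 were above 0 for Rux over UV with a median log2 ratio of 0.36, and 1, Met, was past 2-fold. Of all genes 56.3% were above 0 in that contrast and 2.62% were past 2-fold higher. On the side of the ligands, Kitl in all other retained cells stood at 154, 171 and 100 CPM, Edn3 at 3.12, 5.10 and 0.654 CPM, and Edn1 at 20.6, 23.6 and 28.1 CPM.

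Among the transcription factors the library orders differed from gene to gene. Pax3 was highest in CON (645, 470 and 440 CPM). Id3, an inhibitor of basic helix-loop-helix factors and a target of BMP signaling, stood at 477 CPM in CON, 259 in UV and 214 in Rux, a log2 ratio of -0.88 for UV over CON (-1.09 to -0.68) and -1.15 for Rux over CON. Id2 stood at 318, 153 and 252 CPM, and it was the only one of the 13 measured factors past 2-fold for UV over CON, where 1.77% of 3668 genes were higher and 0.327% lower by 2-fold or more. Tfap2b (172, 127 and 268 CPM) and Irf4, which acts with Mitf on Tyr (168, 131 and 257 CPM), were highest in Rux. Sox10 stood at 206, 159 and 228 CPM.

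Immediate-early genes, which respond within minutes to stress, growth signals and tissue dissociation, had medians above 0 in both irradiated libraries against CON. Fosb stood at 109 CPM in CON, 313 in UV and 420 in Rux. Jund stood at 371, 639 and 949 CPM, Klf6 at 211, 420 and 587 CPM, Jun at 300, 446 and 645 CPM, and Fos at 235, 413 and 386 CPM. Of the 14 measured, 11 were above 0 for UV over CON (48.6% of all genes were; median log2 ratio 0.62), and 1, Fosb, was past 2-fold higher, as were 1.77% of all genes. For Rux over CON 12 were above 0 (57.9% of all genes were; median 0.52) and 5 were past 2-fold, where 4.07% of 3686 genes were higher and 2.41% lower by that much. In all other retained cells the medians were -0.30 and -0.23. The direction in Rux rested on which cells were counted. When MEL-like cells were taken as those with at least 3000 CPM of the 6 markers in place of the cluster, the median for Rux over CON was -0.75 and that for Rux over UV was -0.99, while UV over CON kept 0.46. What share of these transcripts arose during dissociation was not tested.

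Genes of the pathway that ruxolitinib blocks were few in UMIs. Socs3, the feedback inhibitor induced by STAT3, had 163 UMIs in CON (49.0 CPM), 78 in UV (92.6 CPM) and 5 in Rux (11.2 CPM). Its log2 ratio was 0.92 for UV over CON but 0.06 with equal weight per cell, and 1 UV cell gave 34.6% of the UMIs of that library. For Rux over UV the ratio was -2.92 (-4.71 to -1.77). In all other retained cells it was -1.42. Osmr, a receptor chain for oncostatin M, had 127, 57 and 3 UMIs (38.2, 67.7 and 6.70 CPM), a log2 ratio of -3.13 for Rux over UV with a counting interval from -5.66 to -1.72. Irf1 had 163, 86 and 11 UMIs (49.0, 102 and 24.6 CPM), and 1 cell gave 48.8% of those in UV. The kinases and STAT factors themselves differed less, with Jak1 at 96.0, 163 and 98.2 CPM and Stat3 at 211, 293 and 259 CPM. Of the 27 genes of the JAK-STAT list, 13 had at least 50 CPM for UV over CON, where 10 were above 0 (48.6% of all genes were; median 0.57) and none was past 2-fold. For Rux over UV 12 had it, of which 4 were above 0 (56.3% of all genes were; median -0.27) and 1, Socs3, was past 2-fold lower, as were 2.32% of all genes. With equal weight per cell these medians were 0.28 and 0.04.

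Of the interferon and antigen presentation genes, 8 of 8 measured were above 0 for UV over CON (median log2 ratio 0.21), where 48.6% of all genes were above 0, and 1, Irf1, was past 2-fold higher, as were 1.77% of all genes. Taken over cells with at least 5 of the 6 markers in place of the cluster, the median was -0.11 for UV over CON and 0.21 for Rux over UV, so the direction of this list rested on which cells were counted. B2m stood at 1043, 1090 and 1179 CPM and H2-D1 at 588, 620 and 623 CPM. Of 9 genes measured for Rux over UV, 3 were above 0 (median -0.33), where 56.3% of all genes were, and Irf1 was the 1 past 2-fold lower, as were 2.32% of all genes. Both calls of Irf1 rest on its UMIs in UV, of which 1 cell gave a large part, as stated above. Among the antioxidant genes, Hmox1, which degrades heme, stood at 42.7, 115 and 46.9 CPM, and Mt2, a metallothionein, at 449, 650 and 241 CPM. These were the 2 antioxidant genes past 2-fold lower in Rux over UV among 21 measured (median -0.30), where 2.32% of all genes were lower by that much. In all other retained cells the ratio of Rux over UV was -1.47 for Hmox1 and -0.68 for Mt2. Of 7 heat-shock genes, 0 were above 0 for Rux over UV (median -0.41), and in all other retained cells the median of the list was -0.27. The 1 past 2-fold lower was Hspd1, the mitochondrial chaperonin, at 290, 227 and 112 CPM. Of the genes of lysosome and autophagy, 16 of 18 were above 0 for Rux over UV (median 0.34), with Ctsb at 329, 458 and 750 CPM and Sqstm1 at 436, 490 and 734 CPM. In all other cells the median was 0.29.

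Of the adhesion genes 9 of 13 were above 0 for UV over CON (48.6% of all genes were; median log2 ratio 0.37) and 9 of 12 for Rux over CON (57.9% of all genes were; median 0.61), where 2 were past 2-fold higher and 1 lower (4.07% and 2.41% of all genes were). The UV over CON median was 0.077 in cells with at least 5 of the 6 markers and 0.070 in cells with at least 3000 CPM of them. The lower one was Cdh1, the cadherin that holds melanocytes to keratinocytes, which stood at 137, 97.3 and 51.3 CPM, a log2 ratio of -1.38 for Rux over CON (-2.08 to -0.81). Cd44, the hyaluronan receptor, stood at 468, 772 and 982 CPM, Alcam at 299, 375 and 596 CPM, and Timp3, an inhibitor of metalloproteinases, at 77.3, 121 and 205 CPM. For Cd44 the other retained cells had a similar ratio of Rux over CON (0.98 against 1.07 in MEL-like cells), whereas for Timp3 they had -0.01 against 1.41. These list members were chosen as examples after their values were seen.

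**Figure D4:**
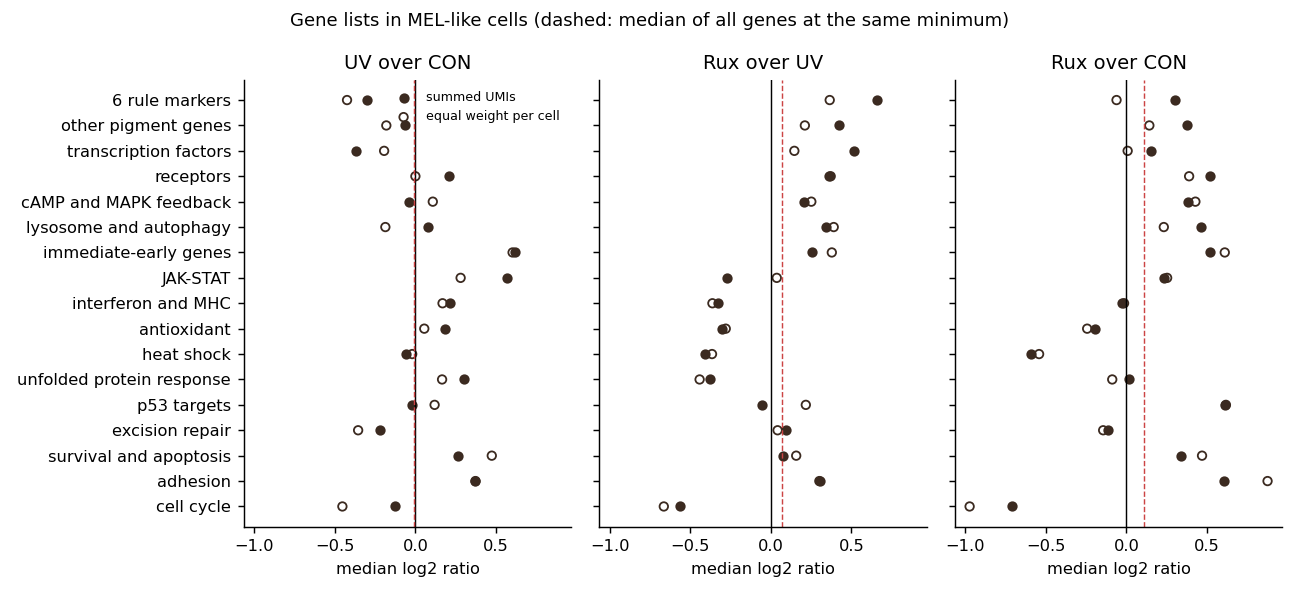
Median log2 ratio of each of 17 gene lists in MEL-like cells for UV over CON, Rux over UV and Rux over CON, from summed UMIs (filled) and with equal weight per cell (open), with the median of all genes as a dashed line. The pigment lists lie right of the line for Rux over UV, and the immediate-early list for UV over CON and Rux over CON. The cell cycle list lies left of it for Rux over UV and Rux over CON. Its medians there turned positive without subcluster 4 (0.34 and 0.096). That subcluster is led by mitosis genes and has no Rux cell, so the shift followed from its removal.

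The 10 highest and 10 lowest genes of each contrast were taken among genes at 100 CPM or more that were found in at least 10% of the cells of the higher library, were at least as high there as in all other cells and kept their sign with equal weight per cell. Lyz2, for example, had a log2 ratio of 3.65 for UV over CON (16.8 and 212 CPM) but was found in 5 UV cells (7.94%) and is not among the 10. In UV over CON the first was Igkc, an immunoglobulin light chain (4.81 CPM in CON and 5406 in UV), but 1 UV cell gave 99.6% of its UMIs. That cell held 4536 Igkc, 2243 Ighm and 382 Jchain UMIs among 13512, with 56 UMIs of the markers, and the doublet caller did not mark it. Hbb-bs, a globin of red cells, owed 93.6% to 1 cell, and Csmd1 60.8%. The others higher in UV were more widely spread. Lgals1 stood at 291 CPM in CON and 646 in UV, Fdps, an enzyme of the mevalonate pathway, at 117 and 265, Dlc1 at 88.2 and 291, Wdfy1 at 74.6 and 160, and Ankrd28 at 209 and 431, with Stard13 and Hivep1 also among the 10. Lower in UV were Naaladl2 (154 against 64.1 CPM), S100a8 (252 against 107, with a like ratio of -1.30 in all other cells), Id2, Wwox, Hip1, Nhs, Dstyk, Acadm, Mical3 and Lima1.

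For Rux over UV the 10 highest were Gne, a sialic acid synthesis gene (46.3 CPM in UV and 214 in Rux), Dhrs3, a retinal reductase gene (46.3 and 212), Robo1 (whose log2 ratio was -0.014 in cells with at least 5 of the 6 markers), Gm10863, Nhs, Mical3, Slc24a4, a sodium-calcium-potassium exchanger linked to pigmentation (193 and 571), Npy, the neuropeptide Y gene (214 and 607), P3h2 and Oca2. The share of UMIs from 1 cell was between 12.8% (Oca2) and 30.2% (Gne) in these. Slc24a4 and Npy were also among the 10 highest for Rux over CON, with P3h2, Robo1, Dhrs3, Dusp10, Wfdc3, Fabp7 (47.2% from 1 Rux cell), Kcnq5 and Gpr137b. The log2 ratio of Npy was 1.51 for Rux over UV and 2.06 for Rux over CON from summed UMIs. With equal weight per cell it was 0.57 and 0.66. Lower in Rux than in UV were, besides Igkc, Hbb-bs and Csmd1, Cep95 (of whose UV UMIs 1 cell gave 63.8%, and whose log2 ratio was 0.0067 in cells with at least 5 of the 6 markers), Tmem108 (165 against 35.7 CPM), Dlc1 (291 against 64.7), Synpr (201 against 75.9), Ldha (316 against 121), Nme1 and Ran. Lower in Rux than in CON were Selenoh (218 against 42.4), Synpr, Ran, Slc25a5, Cbwd1, Tuba1b, Hspd1, Nme1, Hip1 and Inpp4b.

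Clustered again among themselves, the MEL-like cells fell into 4 subclusters that differed in the level of pigment genes, in stress genes and in division. Their leading genes are given among those found in at least 25% of the cells of a subcluster with at most 50% of the UMIs from 1 cell, a limit set after the data were seen. Subcluster 1 (94 cells) had the highest marker level, with a median of 48965 CPM of the 6 markers. It was led by Wdr95, Npy, Oca2, Slc24a4, Gpr143, Trpm1 and Mc1r. Subcluster 2 (64 cells, median 31975 CPM) was led by Ldb2, Pde7b and Morrbid, and Vim, an intermediate filament gene, reached 3326 CPM against 1350 in subcluster 1. Subcluster 3 (64 cells) had the lowest median marker level, 18021 CPM, and the lowest depth, 5539.5 UMIs. It was led by Csmd1, Apod, Stard13, Socs3 and Fosb, the doublet caller marked 26.6% of its cells, and Sox10 was found in 57.8% of them. Without that limit its first genes were Gm20754, Sele, Lgi4 and Lyz2, found in 3, 1, 7 and 5 of the 64 cells. Markers of other cells were highest in it: the endothelial genes summed to 159 CPM, against 7.36, 8.94 and 11.2 in subclusters 1, 2 and 4, the myeloid genes to 516 CPM against 9.96, 11.5 and 7.49, and the Schwann genes to 970 CPM against 560, 618 and 393. Subcluster 4 (29 cells) was led by genes of mitosis, among them Nusap1, Top2a (561 CPM) and Mki67 (417 CPM), at a median marker level of 31569 CPM. It had the greatest depth (median 33047 UMIs) and the highest sum of keratinocyte genes, 1307 CPM against 235, 262 and 404 in subclusters 1 to 3. The part of these transcripts in the subclusters was not tested.

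The makeup of the MEL-like cells by subcluster differed between the libraries. Subcluster 1 held 45.8% of the cells in CON (70 of 153, 37.7% to 54.0%), 20.6% in UV (13 of 63, 11.5% to 32.7%) and 31.4% in Rux (11 of 35, 16.9% to 49.3%). Subcluster 3 held 14.4% in CON (22 cells, 9.24% to 20.96%), 34.9% in UV (22 cells, 23.3% to 48.0%) and 57.1% in Rux (20 cells, 39.4% to 73.7%). Subcluster 2 held 23.5%, 38.1% and 11.4%. Because the genes that define these subclusters differ between libraries as well, the shares describe the cells and are not a test of composition. Some genes named above for the contrasts were also leading genes of subcluster 3. They were P3h2 (245 CPM against 35.1 in the other MEL-like cells), Kcnq5 (569 against 87.0), Dusp10 (267 against 45.9) and Stard13 (417 against 41.8). Npy, Oca2, Slc24a4 and Gne were among those of subcluster 1. How far their ratios between libraries follow the mix of subclusters was not tested.

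**Figure D5:**
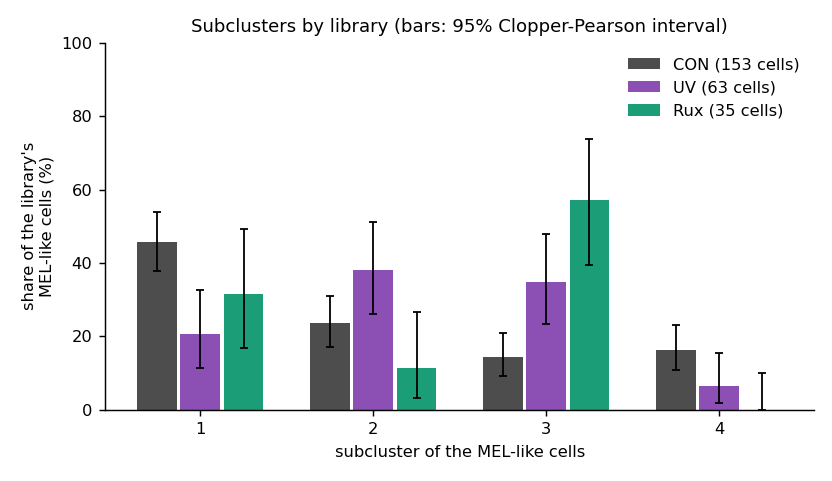
Share of the MEL-like cells of each library (%) in subclusters 1 to 4, with 95% Clopper-Pearson intervals. Subcluster 3 holds 14.4% in CON, 34.9% in UV and 57.1% in Rux, and the dividing subcluster 4 goes from 16.3% to 6.35% and 0%.

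Within subclusters, Oca2 kept its order. In subcluster 1 it stood at 1009 CPM in CON, 1433 in UV and 3091 in Rux, in subcluster 2 at 135, 439 and 784 CPM, and in subcluster 3 at 26.0, 113 and 791 CPM. The 784 CPM of subcluster 2 rest on 4 Rux cells. The 6 markers did not share 1 order. In subcluster 1 Tyr stood at 2208, 1798 and 2999 CPM and Dct at 24219, 21958 and 31623 CPM, with UV below CON. Pmel (10630, 12057 and 13397 CPM) and Mlana (4292, 5103 and 7295 CPM) had UV above CON in the same subcluster. In subcluster 2 Dct stood at 18676, 16189 and 17211 CPM. In subcluster 3 Dct stood at 11633, 9870 and 13733 CPM, and Tyr at 538, 631 and 834 CPM, again with UV above CON. Fosb differed little inside subcluster 3 (686, 862 and 809 CPM). It was lower in subcluster 1 (65.9, 147 and 197 CPM) and in subcluster 2 (92.5, 240 and 235 CPM, the last from 9 UMIs), with UV and Rux above CON in both. Socs3 in subcluster 3 had 49 UMIs in CON (425 CPM), 56 in UV (315 CPM) and 5 in Rux (31.1 CPM). Id3 was highest in CON in subclusters 1 (357, 144 and 241 CPM), 2 (578, 319 and 313 CPM) and 3 (1406, 411 and 149 CPM). In subcluster 4, which held no Rux cell, it stood at 535 CPM in CON and 208 in UV.

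Dividing cells were seen in CON and UV and in no Rux cell. Subcluster 4 held 16.3% of MEL-like cells in CON (25 cells, 10.9% to 23.2%), 6.35% in UV (4 cells, 1.76% to 15.5%) and 0% in Rux (0 of 35 cells, which allows a share of up to 10.0%). The intervals of CON and UV overlapped, as did those of UV and Rux. At a finer subcluster resolution of 0.8 the dividing subcluster held 7.19% in CON (11 cells), 4.76% in UV (3 cells) and 0% in Rux. Mki67, the proliferation antigen, had 397 UMIs in CON, 93 in UV and 1 in Rux, and Top2a had 537, 103 and 1. Birc5, Cdk1 and Ube2c, all of mitosis, had 0 UMIs in Rux, at 300, 184 and 217 in CON and 61, 41 and 66 in UV. A single UV cell gave 46.2% of the Mki67 UMIs and 50.5% of the Top2a UMIs of that library. After thinning each cell, cells with at least 2 UMIs of the dividing genes made up 10.1% of 148 cells in CON, 5.17% of 58 in UV and 0% of 35 in Rux (unthinned 27.5%, 19.0% and 0%). In all other retained cells Mki67 was lower in Rux than in UV as well, by a log2 ratio of -0.59. Of 7 cell cycle genes measured in MEL-like cells for Rux over UV, 2 were above 0 (56.3% of all genes were; median -0.56). Past 2-fold, 1 was higher (Ccnd1) and 3 were lower, as were 2.62% and 2.32% of all genes. Without subcluster 4 the median of the list was 0.34. Because that subcluster is led by mitosis genes and has no Rux cell, its removal took them from CON and UV alone. The shift therefore says nothing about the other cells.

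Over all 1020 marker-positive cells the contrasts mixed these cells with those of the other clusters, whose shares differed between libraries. MEL-like cells were 29.0% of them in CON, 15.6% in UV and 39.3% in Rux. The 6 markers had a median log2 ratio of -1.09 for UV over CON, 1.41 for Rux over UV and 0.32 for Rux over CON. The last of these was -0.49 with at least 2 of the 6 markers and -0.70 with Ptprc and Pdgfra cells kept. Of genes with at least 100 CPM, 2.05% of 1947 were higher and 1.23% lower by 2-fold or more in UV over CON, 3.04% and 1.39% of 1943 in Rux over UV, and 3.06% and 2.04% of 1963 in Rux over CON. The highest for Rux over UV included Cst6, Krt35, Defb6, Dapl1, Krt10 and Mt4, genes of hair and epidermis, beside Oca2, Ptgds and Rarb. Single Rux cells gave 85.1% of the Cst6 UMIs, 84.0% of Krt10, 64.5% of Mt4, 54.0% of Defb6, 49.4% of Krt35 and 47.3% of Dapl1. With at least 4 of the 6 markers required, the log2 ratio of all 6 genes was below 0, from -3.96 (Defb6) to -0.28 (Dapl1). Of the 6 markers, 5 were past 2-fold lower in UV over CON. With the MEL-like cluster counted alone, none of the 6 was past 2-fold in any contrast. In cells with at least 5 of the 6 markers, taken in place of the cluster, their median log2 ratio for Rux over UV was 1.00.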

How the data were processed

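Droplet 3' single-cell RNA-seq counted UMIs per gene and cell in 3 libraries of mouse dorsal skin. The authors deposited UMI counts per gene and cell for each library, as Cell Ranger called the cells (version 6.1.2 in the submitters' processing notes, 7.0.0 in the file headers), on build mm10 and with no further filter or normalization. Seurat 5.3.0, which the notes also name, left no values in these files. Marker-positive cells and gene lists were chosen with earlier results of these data known. Library totals were 165337289, 133972374 and 131570327 UMIs.

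UMIs were summed over the cells of a library, scaled to CPM and compared as log2 ratios with 0.5 UMI added to each sum. Ratios have exact conditional binomial intervals, levels exact Poisson intervals and shares Clopper-Pearson intervals. With 1 library per group no test was made. A gene counted as past the fold at 2-fold or more, with a mean of at least 100 CPM (marker-positive cells) or 50 CPM (MEL-like cells) and at least 30 UMIs together. Named genes were the 6 markers, examples of the lists, the 10 highest and 10 lowest ratios of each contrast among genes at 100 CPM or more, found in at least 10% of the cells of the higher library, at least as high there as in all other cells and of the same sign with equal weight per cell, and the 20 genes with the highest smallest ratio over all other cells. Cells were clustered by the Leiden method (1500 variable genes without the markers, 20 components, 15 neighbours, resolution 0.5; subclusters with 15 components). Doublets were called with Scrublet at 0.8% per 1000 cells and kept. Analyses used Python 3.11.15, numpy 2.4.6, scipy 1.17.1, pandas 2.3.3, scanpy 1.11.5, leidenalg 0.10.2 and scikit-learn 1.9.0. The interval functions were tested on simulated data. Some genes are not reported here.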

Additional observations from a re-analysis of the deposited data

Results flagged for a closer look

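Pigment cells also appeared among cells that the comparisons did not use. Of the cells that failed the filter on genes and mitochondrial UMIs, 3 of 1131 in CON (0.265%, 0.055% to 0.773%), 25 of 1080 in UV (2.31%, 1.50% to 3.40%) and 7 of 1146 in Rux (0.611%, 0.246% to 1.25%) held at least 5 of the 6 markers with no Ptprc or Pdgfra UMI. All of them had over 10% mitochondrial UMIs, with medians of 17.0%, 22.2% and 26.5%. They were 1.36%, 21.6% and 14% of the deposited cells with at least 5 markers and no Ptprc or Pdgfra UMI (220, 116 and 50 cells), so the filter took a larger part of such cells in UV than in CON, and their median marker levels were 9894, 47395 and 40479 CPM. The cause was not tested.

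Cells with at least 5 of the 6 markers were also left out for a Ptprc or Pdgfra UMI, 34 in CON, 21 in UV and 8 in Rux. Their medians were 40733, 16424 and 23409 UMIs, above those of the MEL-like cells.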

How the results depend on the processing

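No paired analysis was possible because each group had 1 library. Values are given for the settings that moved a share or a list median beyond its interval or a count by over 1.5 times, and the cause of these shifts was not tested. The alternatives for MEL-like cells were chosen after seeing the data. The share of marker-positive cells became 2.12% (CON), 1.22% (UV) and 0.493% (Rux) with at least 4 of 6 markers, 13.3% (CON), 11.5% (UV) and 4.20% (Rux) with at least 2 of 6 markers, 6.21% (CON), 7.25% (UV) and 3.16% (Rux) with Ptprc and Pdgfra cells kept, and 2.25% (CON), 1.16% (UV) and 0.528% (Rux) with every cell thinned to 2000 UMIs. The share of MEL-like cells became 1.80% (CON) and 0.803% (UV) with at least 5 of the 6 markers, 1.95% (CON) and 0.794% (UV) with at least 3000 CPM of the 6 markers, and 0.98% (CON) with the cluster taken at resolution 0.8. The share of dividing MEL-like cells became 10.2% (CON) with at least 3000 CPM of the 6 markers, and 5.93% (CON) with the cluster taken at resolution 0.8. At a threshold of 1.5-fold, the genes past the fold in marker-positive cells were 116 higher and 59 lower for UV over CON, 132 higher and 98 lower for Rux over UV and 197 higher and 163 lower for Rux over CON. With a mean of at least 50 CPM, the genes past the fold in marker-positive cells were 96 higher and 39 lower for UV over CON, 121 higher and 53 lower for Rux over UV and 148 higher and 83 lower for Rux over CON. With at least 4 of 6 markers, the genes past the fold in marker-positive cells were 13 lower for UV over CON and 114 higher and 50 lower for Rux over UV. With Ptprc and Pdgfra cells kept, the genes past the fold in marker-positive cells were 106 higher for UV over CON, 17 lower for Rux over UV and 263 higher and 97 lower for Rux over CON. With equal weight per cell, the genes past the fold in marker-positive cells were 124 higher for UV over CON, 55 lower for Rux over UV and 124 higher for Rux over CON. With at least 2 of 6 markers, the genes past the fold in marker-positive cells were 7 higher and 7 lower for Rux over UV and 23 lower for Rux over CON. For marker-positive cells, the median log2 ratios of the 6 markers and of the other pigment genes moved as follows. A stricter filter of 500 genes and 5% mitochondrial UMIs gave -1.61 (UV over CON), 1.62 (Rux over UV) and 0.045 (Rux over CON) for the 6 markers, and 1.29 (Rux over UV) and 0.12 (Rux over CON) for the other pigment genes. A looser filter of 200 genes and 20% mitochondrial UMIs gave -0.99 (UV over CON) and 1.35 (Rux over UV) for the 6 markers, and -0.52 (UV over CON) for the other pigment genes. At least 4 of 6 markers gave -0.71 (UV over CON), 1.14 (Rux over UV) and 0.41 (Rux over CON) for the 6 markers, and -0.43 (UV over CON) and 0.96 (Rux over UV) for the other pigment genes. At least 2 of 6 markers gave -1.23 (UV over CON), 0.74 (Rux over UV) and -0.49 (Rux over CON) for the 6 markers, and -0.45 (UV over CON), 0.34 (Rux over UV) and -0.017 (Rux over CON) for the other pigment genes. Ptprc and Pdgfra cells kept gave -1.47 (UV over CON), 0.80 (Rux over UV) and -0.70 (Rux over CON) for the 6 markers, and -0.80 (UV over CON), 0.59 (Rux over UV) and -0.097 (Rux over CON) for the other pigment genes. Marked doublets removed gave -1.15 (UV over CON) and 1.47 (Rux over UV) for the 6 markers. Median-of-ratios scaling gave -1.03 (UV over CON) for the 6 markers. Genes with at least 10 UMIs gave -0.44 (UV over CON) and 0.44 (Rux over UV) for the other pigment genes. The deepest cell of each library left out gave 1.51 (Rux over UV) and 0.43 (Rux over CON) for the 6 markers, and 1.27 (Rux over UV) for the other pigment genes. Equal weight per cell gave 1.20 (Rux over UV) for the other pigment genes. At most 1% keratin UMIs gave 1.27 (Rux over UV) for the other pigment genes. The count of genes past 2-fold in MEL-like cells became 51 with at least 3000 CPM of the 6 markers (UV over CON), 125 with subcluster 4 (the dividing cells) left out (UV over CON), 143 with equal weight per cell (UV over CON) and 288 with at least 5 of the 6 markers (Rux over UV). For MEL-like cells, the median log2 ratios of the 6 markers and of the other pigment genes moved as follows. At least 5 of the 6 markers gave -0.53 (UV over CON), 1.00 (Rux over UV) and 0.40 (Rux over CON) for the 6 markers, and -0.31 (UV over CON) and 0.76 (Rux over UV) for the other pigment genes. At least 3000 CPM of the 6 markers gave -0.12 (UV over CON) and 0.53 (Rux over CON) for the 6 markers, and 0.52 (Rux over CON) for the other pigment genes. The cluster taken at resolution 0.3 gave -0.25 (UV over CON) for the 6 markers. Marked doublets removed gave -0.26 (UV over CON) and 0.35 (Rux over CON) for the 6 markers. Subcluster 4 (the dividing cells) left out gave -0.39 (UV over CON) and 0.19 (Rux over CON) for the 6 markers, and 0.28 (Rux over CON) for the other pigment genes. Equal weight per cell gave -0.42 (UV over CON), 0.36 (Rux over UV) and -0.061 (Rux over CON) for the 6 markers, and 0.14 (Rux over CON) for the other pigment genes. The deepest cell of each library left out gave -0.42 (UV over CON) and 0.24 (Rux over CON) for the 6 markers. Median-of-ratios scaling gave 0.19 (Rux over CON) for the 6 markers, and 0.27 (Rux over CON) for the other pigment genes. Ighm (-0.26) changed sign in the log2 ratio of UV over CON in marker-positive cells with at least 2 of 6 markers. Cst6 (-2.14), Krt35 (-3.74), Defb6 (-3.96), Dapl1 (-0.28), Krt10 (-1.26) and Mt4 (-1.97) changed sign in the log2 ratio of Rux over UV in marker-positive cells with at least 4 of 6 markers. Cst6 (-1.41), Defb6 (-3.46) and Krt10 (-0.37) changed sign in the log2 ratio of Rux over UV in marker-positive cells with at most 1% keratin UMIs. Slpi (0.10) changed sign in the log2 ratio of Rux over UV in marker-positive cells with at least 2 of 6 markers. Cst6 (-2.38), Defb6 (-3.55), Dapl1 (-0.38), Krt79 (-0.66) and Krt35 (-4.15) changed sign in the log2 ratio of Rux over CON in marker-positive cells with at least 4 of 6 markers. Cst6 (-0.089), Defb6 (-0.71) and Krt79 (-0.015) changed sign in the log2 ratio of Rux over CON in marker-positive cells with at most 1% keratin UMIs. Robo1 (-0.014) and Cep95 (0.0067) changed sign in the log2 ratio of Rux over UV in MEL-like cells with at least 5 of the 6 markers. The medians of the other lists in MEL-like cells rest on the genes measured under each setting. The immediate-early median was for UV over CON (0.62 in the cluster) 1.04 with the cluster taken at resolution 0.8 and 1.01 with subcluster 4 (the dividing cells) left out. It was for Rux over UV (0.25 in the cluster) -0.65 with at least 5 of the 6 markers and -0.99 with at least 3000 CPM of the 6 markers. It was for Rux over CON (0.52 in the cluster) -0.75 with at least 3000 CPM of the 6 markers and 1.09 with the cluster taken at resolution 0.8. The cell cycle median was for UV over CON (-0.13 in the cluster) -0.58 with at least 3000 CPM of the 6 markers and -0.59 with marked doublets removed. It was for Rux over UV (-0.56 in the cluster) 0.28 with the cluster taken at resolution 0.3, 0.28 with the cluster taken at resolution 0.8, 0.30 with marked doublets removed, 0.34 with subcluster 4 (the dividing cells) left out and -0.054 with equal weight per cell. It was for Rux over CON (-0.71 in the cluster) -1.39 with at least 5 of the 6 markers, -1.37 with at least 3000 CPM of the 6 markers, -0.068 with the cluster taken at resolution 0.8 and 0.096 with subcluster 4 (the dividing cells) left out. The interferon and antigen presentation median was for UV over CON (0.21 in the cluster) -0.11 with at least 5 of the 6 markers. It was for Rux over UV (-0.33 in the cluster) 0.21 with at least 5 of the 6 markers. The heat-shock median was for UV over CON (-0.056 in the cluster) 0.26 with at least 5 of the 6 markers. It was for Rux over CON (-0.59 in the cluster) -0.43 with at least 5 of the 6 markers and -0.39 with equal weight per cell. The adhesion median was for UV over CON (0.37 in the cluster) 0.077 with at least 5 of the 6 markers and 0.07 with at least 3000 CPM of the 6 markers. The lysosome median was for UV over CON (0.08 in the cluster) -0.19 with equal weight per cell. The transcription factor median was for Rux over UV (0.52 in the cluster) 0.15 with equal weight per cell. Of the log2 ratios of single named genes under the alternatives, 444 of 830 in marker-positive cells and 670 of 856 in MEL-like cells stayed within their counting intervals. Depth limits the Rux library most, with 35 MEL-like cells and 448019 UMIs among them.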
